A study of Mus musculus with 58 samples.

Results

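SPEN is a large RNA-binding protein that the long non-coding RNA Xist recruits to the chromosome it is going to silence. Its C-terminal SPOC domain binds the corepressor NCoR1, which carries the histone deacetylase HDAC3 together with the WD40-repeat protein TBL1XR1 and the small subunit GPS2. HDAC3 depends on its corepressor for enzymatic activity, and the complex removes acetyl groups from histones at repressed genes. The 5 genes described here are Spen itself and the 4 genes of that complex, Ncor1, Hdac3, Tbl1xr1 and Gps2. They were chosen by symbol, as 5 of the 22556 genes that every count table held, and all 5 were among the 16227 genes that had enough counts to be tested. The question was whether their nascent transcript levels, and the share of each allele, differed between lines with and without a mutated SPOC domain.

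Chromatin-associated RNA (ChrRNA-seq, which samples RNA still attached to chromatin) was sequenced in 58 libraries from female mouse embryonic stem (ES) cells. The cells are a 129S x Cast hybrid in which every autosomal gene has a Cast allele and a Dom (129S) allele. All lines descend from iXist-ChrX-Dom, 1 clone in which doxycycline (1 μg/mL) drives Xist on the Dom X chromosome, and this line is called WT here. DelPID lines lack the Xist B/C repeat (PID region). PCGF35 lines carry an FKBP12 degron on PCGF3 and PCGF5, subunits of a Polycomb complex, and were left untreated (ctrl) or given 100 μM dTAG-13 from 12 hours before doxycycline (dTAG). Each of these 3 backgrounds has a derivative with the SPOC mutation. SPOC is represented by clones D9, H1 and C11, DelPID_SPOC by clones A8 and G3, and PCGF35_SPOC by clones F10 and F6. Clone G3 was described in the study as tetraploid, and F6 was re-cloned to remove cells that had lost an X chromosome. ES libraries were taken at day 0 (no doxycycline) and day 1, and libraries of cells differentiating towards neural progenitors (NPC) at days 3 and 6, with doxycycline throughout. The groups number 28, each with 2 libraries except for the SPOC ES groups, which have 3. WT and DelPID have no ES libraries here, so the ES comparison of mutant and parent rests on the PCGF35 background alone.

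Counted fragments ranged from 2292261 to 30005305 per library. The shallowest was DelPID NPC day 6 replicate 1, followed by DelPID NPC day 3 replicate 1 with 6372321, and 44.2 to 49.6% of fragments could be given to an allele. In 44 of the 45 induced libraries more than 99% of allelic Xist fragments came from the Dom allele. The exception was PCGF35 dTAG ES day 1 replicate 1, at 79.4% (95% Wilson interval 78.83 to 79.98%). For Spen and the genes of the complex, results that use this library and its day 0 partner are given with and without them where that changes a call. ES calls of other genes are given with them only, and whether each holds without them is not reported. In the ES comparison of mutant and parent, 2027 genes passed with them and 273 without them. Levels are given in CPM, fragment counts of a gene relative to the TMM-scaled library size. Pluripotency markers were present at both stages. Their summed level (Nanog, Pou5f1, Klf2, Zfp42 and Esrrb) was 978 to 1964 CPM in ES and 309 to 1188 CPM in NPC libraries, so the NPC libraries still expressed these genes. Neural markers summed to 34.3 to 384 CPM in NPC and 26.9 to 115 CPM in ES libraries. Sox2 and Sox1 were listed at 0 in every library. Fibroblast markers of the feeder layer summed to 0.509 to 26.0 CPM in ES and 0.860 to 132 CPM in NPC libraries.

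The mutation itself lies near the 3′ end of the Spen coding sequence. It replaces a pair of arginine codons by alanine codons, and the reference sequence around the only arginine pair of that spacing in the last 170 codons of the transcript is shown because it is the one difference that defines the mutant groups. These codons were taken to be the edited ones. A genotyping primer for the mutation listed in the study has the alanine codons GCC and GCA in their place. In GENCODE vM21 they are codons 3531 and 3533 of 3643 in transcript Spen-202, within exon 14 of 16, at chr4:141469858-141469866 on the minus strand of mm10. The study's residue numbers are offset from these codon numbers. The sequence shown spans chr4:141469834-141469890 and runs 5′ to 3′ on the coding strand, with both arginine codons in capitals.
Spen, SPOC domain: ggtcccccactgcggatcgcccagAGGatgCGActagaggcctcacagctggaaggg

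Spen was the member that differed most between mutants and parents. Fragments were counted over the whole gene span, introns included, on the annotated strand. In the 8 ES libraries of PCGF35, Spen ranged from 67.3 to 152 CPM with a median of 106 CPM. The 18 ES libraries with the SPOC mutation ranged from 244 to 345 CPM with a median of 282 CPM. Every mutant ES library was above every parent ES library, including SPOC and DelPID_SPOC, which have no ES parent here. In NPC libraries the 16 parents ranged from 125 to 241 CPM with a median of 160 CPM, and the 16 mutants from 188 to 888 CPM with a median of 525 CPM. The pooled NPC ranges overlapped, because 1 PCGF35_SPOC library lay below the highest DelPID and PCGF35 parents.

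The mutant libraries were above the parent libraries without overlap in 12 of 12 pairs of groups matched for line, treatment and day. Each group in these pairs had 2 libraries. Here and for the other members, the share of all genes without overlap was not counted, so single pairs without overlap are descriptions. The ratio of group means was 2.45 to 3.32 in the 4 ES pairs and 2.50 to 3.89 in the 8 NPC pairs. In edgeR's quasi-likelihood test with Benjamini-Hochberg adjustment over all tested genes, the averaged ES difference was a log2 fold change of 1.51 ± 0.20 (SE), or 2.86-fold, with adjusted p = 3.7e-05. The NPC difference was 1.59 ± 0.14, or 3.02-fold, with adjusted p = 4.3e-09. Of all tested genes, 12.5% passed this test in ES and 8.62% in NPC. Libraries of the same clone are not separate derivations, and with clone or culture as a block the Spen values were 1.58 (adjusted p = 0.0056) in ES and 1.54 (adjusted p = 1.2e-06) in NPC, where 25 and 310 genes passed. Taking 1 mean per clone or culture, the 6 mutant NPC cultures exceeded the 6 parent cultures by 1.60 on the log2 scale (exact two-sided permutation within backgrounds, p = 0.0093, the smallest that 216 arrangements allow).

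**Figure D1:**
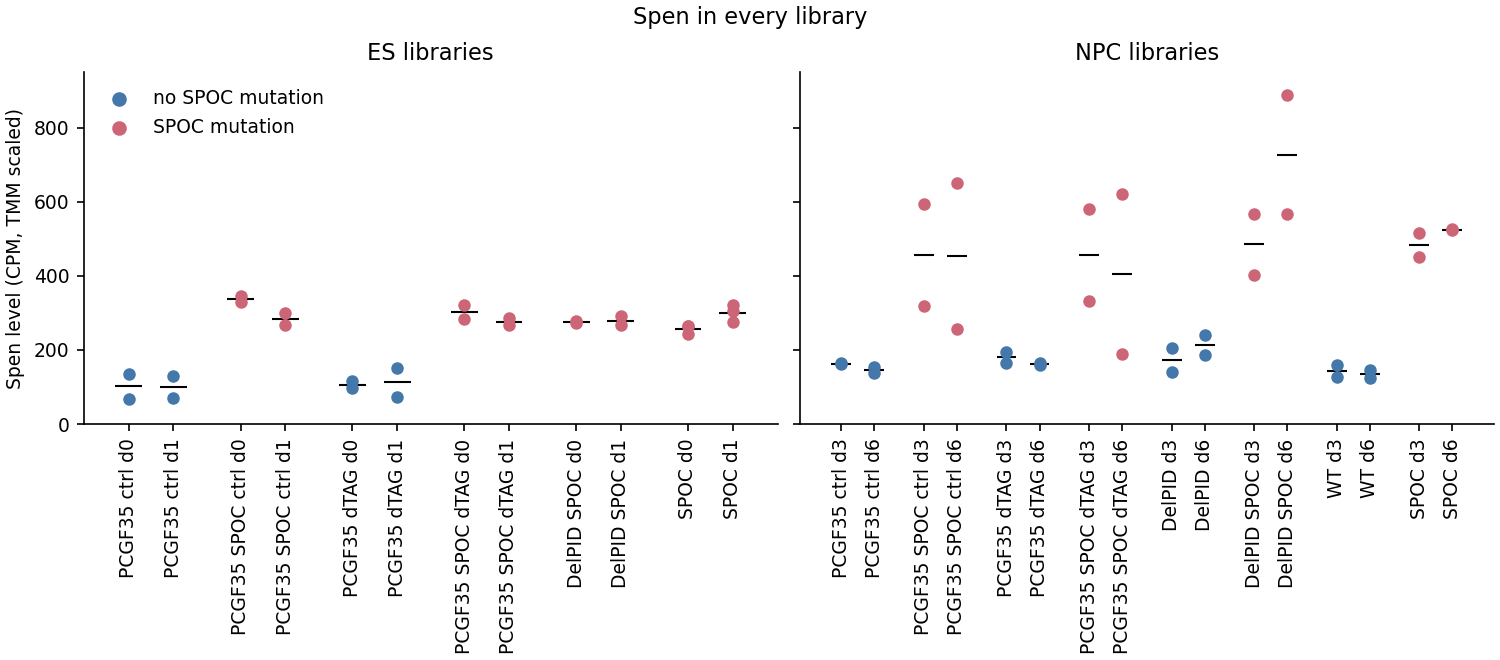
Spen level in CPM (linear axis from 0) in each library, by line, treatment and day, for ES libraries (left) and NPC libraries (right). Points are libraries and bars are group means. All 34 libraries with the SPOC mutation lie at or above 188 CPM, while parents span 67.3 to 241 CPM, and in each matched pair of groups the mutant points lie above the parent points.

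The size of the Spen increase differed among clones after differentiation. In PCGF35_SPOC NPC libraries, clone F10 had 318, 257, 331 and 188 CPM and clone F6 had 593, 650, 582 and 622 CPM. These clones did not overlap in NPC, although their ES means were 300.0 ± 39.1 and 300.4 ± 21.3 CPM (SD, n = 4 each). DelPID_SPOC clone A8 had 567 CPM at day 3 and 888 CPM at day 6, and clone G3 had 404 and 566 CPM. Clones D9 and H1 of SPOC were close together, with 451 and 523 CPM against 516 and 526 CPM. NPC parents spanned 125 to 159 CPM in WT, 139 to 195 CPM in PCGF35 and 141 to 241 CPM in DelPID. In ES cells the PCGF35 replicates stood apart, with 116 to 152 CPM in the 4 libraries of replicate 1 and 67.3 to 96.0 CPM in those of replicate 2, all below the mutants.

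The difference between mutants and parents did not pass a test of change between stages in the PCGF35 background. The NPC minus ES interaction was -0.07 ± 0.28 (95% interval -0.62 to 0.48, adjusted p = 0.94), where 0.653% of genes passed. This value averages clone F10, at 188 to 331 CPM in NPC, and clone F6, at 582 to 650 CPM, whose ES means were alike. Differentiation itself went with higher Spen. From ES day 0 to NPC day 6 the log2 change was 0.74 ± 0.16 (adjusted p = 1.9e-04), with higher means in 6 of 6 line and treatment groups and changes of 0.42 to 1.39. Passing genes made up 58.9% of those tested in that comparison, so a call alone says little, and Xist induction and days in culture changed together with the stage. dTAG-13 treatment gave a Spen difference of 0.02 ± 0.14 (95% interval -0.25 to 0.29, adjusted p = 1.0), where 0.0247% of genes passed.

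Both Spen alleles were higher in the mutants. In ES libraries the median Cast level went from 29.5 to 77.5 CPM and the median Dom level from 22.8 to 56.5 CPM. In NPC libraries the corresponding medians were 40.6 and 135 CPM for Cast and 39.5 and 126 CPM for Dom. The Dom share was 41.4 to 47.3% in ES parents and 37.0 to 49.1% in ES mutants, and 44.0 to 52.3% against 40.7 to 57.2% in NPC. The allele test, which models both alleles of each library, gave a log2 change of the Dom to Cast ratio of -0.09 ± 0.10 in ES (adjusted p = 0.80) and 0.03 ± 0.07 in NPC (adjusted p = 0.90), with 2.57% and 5.44% of genes passing. Clone F6 had the lowest shares among the ES libraries, 37.0 to 39.0%. Every library in this comparison had at least 250 allelic Spen fragments, and the intervals printed for allele shares cover counting error only.

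Genes next to Spen were also compared, as the 5 nearest tested genes on each side. In NPC 5 of 10 passed the test and all of these were higher in the mutants. Over all tested genes 8.62% passed, and the median log2 change over chromosome 4 was 0.01. In ES 3 of 10 passed, again higher, against 12.5% of all tested genes. AI507597, among the 10, had too few fragments for an estimate. Tmem82, upstream on the same strand, changed by 0.78 ± 0.16 in ES and 0.54 ± 0.12 in NPC (adjusted p = 0.0028 and 0.0039). Zbtb17, whose end overlaps the end of Spen on the other strand, changed by 0.25 ± 0.08 in NPC (adjusted p = 0.043) and gave 0.14 ± 0.11 in ES (adjusted p = 0.42). B330016D10Rik, on the other strand beyond the start of Spen, changed by 0.73 ± 0.16 in NPC (adjusted p = 0.0023) and gave 0.19 ± 0.20 in ES (adjusted p = 0.55).

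Markers of cell state differed between the same groups, and their part in the member results was not tested. Over all tested genes 12.5% passed in ES and 8.62% in NPC. Of 5 tested pluripotency genes, 3 were higher in NPC mutants (Nanog by 0.81, Zfp42 by 0.78 and Klf2 by 0.66 on the log2 scale), and the summed level of the list was 309 to 1188 CPM with a median of 962 CPM, against 316 to 1120 CPM with a median of 649 CPM in parents. In ES mutants 1 of 5 was lower (Zfp42, -0.82), and the sums were 978 to 1536 CPM with a median of 1156 CPM, against 1311 to 1964 CPM with a median of 1608 CPM. Of 5 tested neural genes, 2 were higher in NPC mutants (Pax6 and Fabp7) and none passed in ES. Both were low in NPC libraries. Fabp7 had a median of 0.074 CPM and was at 0 in 9 of 32, and Pax6 had a median of 2.58 CPM. Nes, Vim and Tubb3 did not pass in NPC, at -0.02, 0.06 and 0.12. The neural sums were 34.3 to 345 CPM in NPC mutants and 35.0 to 384 CPM in NPC parents. None of 5 tested feeder fibroblast genes passed in either stage, and Lum was at 0 in 22 of 26 ES and 27 of 32 NPC libraries. In bulk libraries, a smaller number of cells of a type and less RNA per cell cannot be told apart.

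Ncor1, which encodes the scaffold of the complex, had the highest median level per length over all libraries, and its level differed between cell lines. Per kilobase of gene span its median was 6.51 CPM over 58 libraries, against 3.83 for Tbl1xr1, 3.75 for Spen, 2.97 for Gps2 and 1.35 for Hdac3. The ranges of neighbours in this order overlapped, at 4.09 to 13.8, 2.78 to 6.45, 0.952 to 12.6, 1.66 to 6.99 and 1.05 to 2.10 CPM per kilobase. The place of Spen in the order changed with the mutation. In NPC mutants its median was 7.42 CPM per kilobase, above the 6.34 of Ncor1, and in parents it was 1.50 (ES) and 2.27 (NPC), below the 3.17 and 3.34 of Gps2. In NPC libraries of WT, Ncor1 was at 669 to 829 CPM, and SPOC was at 709 to 803 CPM. DelPID libraries were at 1665 to 1942 CPM and DelPID_SPOC libraries at 1509 to 1839 CPM, so neither overlapped with WT or SPOC. PCGF35 and PCGF35_SPOC NPC libraries were at 772 to 1136 CPM and 758 to 1096 CPM, below both DelPID lines and overlapping with WT and SPOC.

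The comparison of parental lines was added after these values were seen. DelPID exceeded WT in NPC by a log2 fold change of 1.24 ± 0.14, or 2.36-fold (edgeR, adjusted p = 3.5e-07), where 7.56% of genes passed. PCGF35 without dTAG-13 differed from WT by 0.28 ± 0.14 (adjusted p = 0.30), where 3.12% of genes passed. With 2 libraries per day and line, each line stands for 1 derivation, so a difference between lines cannot be told apart from one between clones. The paper describes WT as differentiated in parallel with SPOC, and DelPID with DelPID_SPOC, but not these parents with each other. A difference between parental lines therefore also cannot be told apart from one between differentiation experiments.

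The allele counts of Ncor1 differed between lines in opposite directions. In WT NPC libraries the Cast allele had a median of 121 CPM and the Dom allele 163 CPM, a Dom share of 55.9 to 58.8%. In DelPID the Cast allele had a median of 473 CPM while the Dom allele had 162 CPM, and the Dom share was 22.7 to 26.4%. In PCGF35 the Dom allele had 264 CPM and the Cast allele 105 CPM in NPC, a Dom share of 69.4 to 72.7%. The change of the Dom to Cast ratio against WT was -2.02 ± 0.06 for DelPID (adjusted p = 1.5e-17) and 0.85 ± 0.06 for PCGF35 (adjusted p = 9.7e-11), with 15.1% and 6.95% of genes passing. DelPID_SPOC and PCGF35_SPOC had shares near those of their parents, with 24.5 to 26.5% and 69.5 to 73.2% over both stages. PCGF35 ES libraries were at 72.3 to 75.7%. The higher DelPID total was thus carried by the Cast allele, and in PCGF35 the Dom allele was the higher one.

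**Figure D2:**
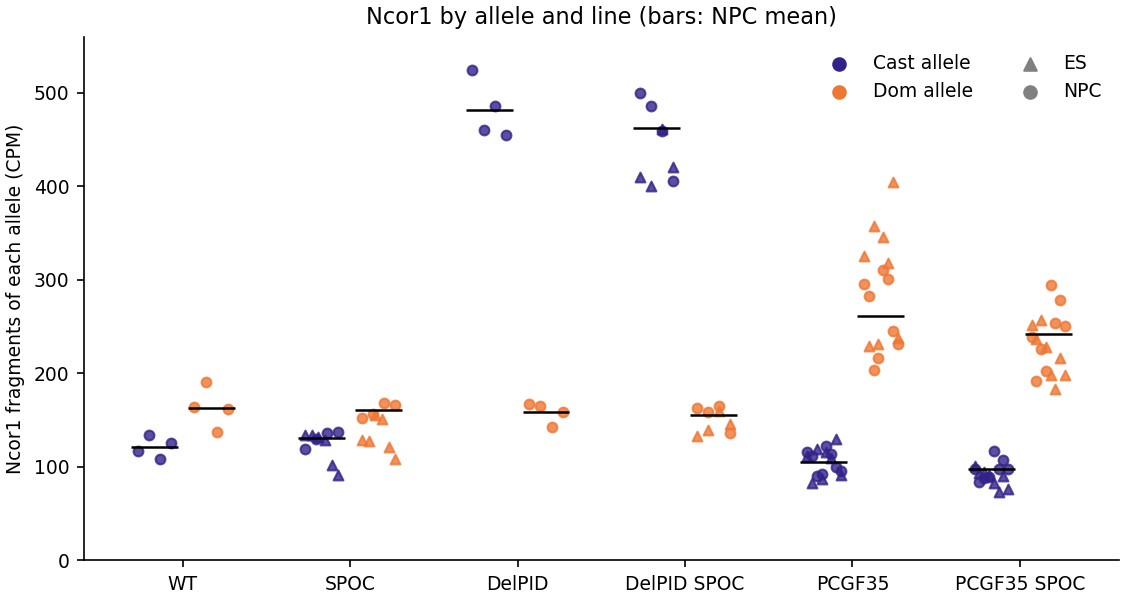
Ncor1 fragments of the Cast allele and the Dom allele, in CPM on a linear axis from 0, for every library by line. Triangles are ES libraries, circles are NPC libraries and bars are NPC means. Cast levels of both DelPID lines lie at 400 to 524 CPM, above all other libraries, and Dom levels of both PCGF35 lines lie at 183 to 405 CPM, reaching above the 108 to 191 CPM of WT and SPOC.

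Ncor1 lies at chr11:62316425-62457332 (mm10, minus strand), and the allele shares of its chromosome moved with it. The median Dom share over 881 genes of chromosome 11 was 35.0 to 37.0% in DelPID, 68.5 to 69.3% in PCGF35 NPC libraries and 53.0 to 54.9% in WT. In SPOC NPC libraries it was 49.0 to 50.0%, below WT. The median level of chromosome 11 genes was higher than in WT by 0.20 (DelPID) and 0.27 (PCGF35) on the log2 scale, while over all genes it was -0.02 and 0.00. From Mrpl22 to Zfp287 (chr11:58171653-62729093), a stretch of 93 tested genes delimited by their low DelPID Dom share itself, so that this share is a description, the median Dom share in DelPID was 22.2%, against 37.1% in the rest of the window of 50 to 75 Mb. The median log2 difference of DelPID from WT was 0.85 in the stretch, where 60 genes passed and 59 of them were higher. It was 0.21 in the 266 other genes of the window, where 41 passed. The allele counts that delimited the stretch are part of the total counts tested here, so these levels and calls are descriptions too. PCGF35 had a median share of 68.3% both inside and outside the stretch. The number of chromosome copies was not measured in these data, and its part in the Ncor1 levels was not tested.

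**Figure D3:**
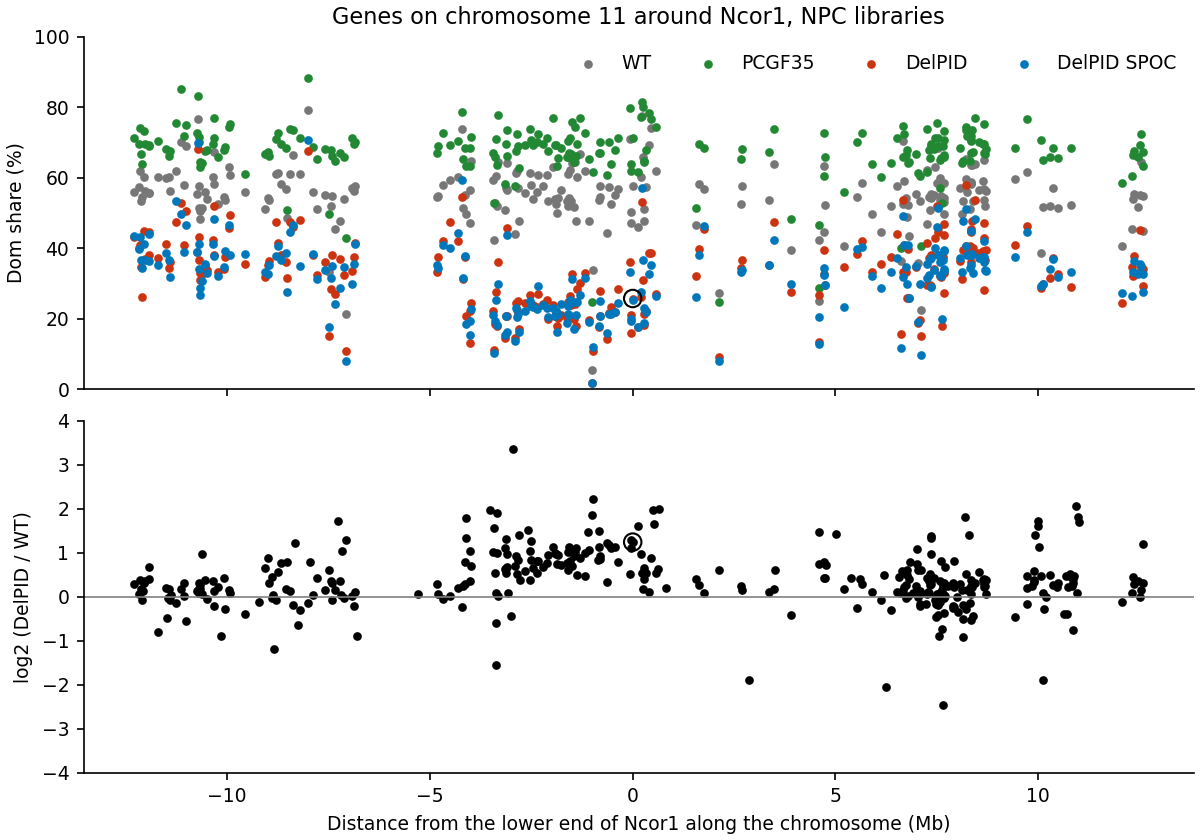
Top, Dom share (percent) of genes on chromosome 11 by distance from the lower end of Ncor1 in Mb, as NPC means of WT, PCGF35, DelPID and DelPID_SPOC. Bottom, log2 difference of DelPID from WT for tested genes. Circles mark Ncor1. DelPID and DelPID_SPOC points drop from about the 37.1% of the flanks to a median near 22.2% over the stretch that holds Ncor1, and the same genes lie at a median of 0.85 in the lower panel.

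With the SPOC mutation, Ncor1 was lower by point estimate in 4 of 4 ES pairs, with ratios of group means of 0.710 to 0.821, and 2 of these pairs did not overlap. In ES libraries of PCGF35, replicate 1 had 1262 to 1406 CPM and replicate 2 had 873 to 1118 CPM, while clone F10 had 897 to 991 CPM and clone F6 had 726 to 821 CPM. Parent replicate 2 thus overlapped with clone F10. The averaged ES difference was -0.40 ± 0.10 (edgeR, adjusted p = 0.0094), but it did not pass with clone or culture as a block (adjusted p = 0.23), with the groups of the comparison alone (adjusted p = 0.11) or without the pair of libraries with Xist from both alleles (-0.28, adjusted p = 0.14). In NPC the difference was -0.06 ± 0.07 (95% interval -0.20 to 0.08, adjusted p = 0.69), with 6 of 8 pairs lower. The Dom to Cast ratio of Ncor1 in ES changed by -0.19 ± 0.04 (adjusted p = 0.021). That call was lost with the block (adjusted p = 0.47) and without the Xist pair (-0.15, adjusted p = 0.14). From ES day 0 to NPC day 6 Ncor1 differed by -0.13 ± 0.08 (adjusted p = 0.17), and with dTAG-13 by 0.06 ± 0.07 (adjusted p = 0.99).

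Tbl1xr1, the WD40-repeat subunit that binds histone tails, was lower in mutant NPC libraries. The 16 parent NPC libraries ranged from 550.2 to 903 CPM with a median of 699 CPM, and the 16 mutants from 389 to 713 CPM with a median of 549.8 CPM. The difference was -0.34 ± 0.06, a ratio of 0.788 (edgeR, adjusted p = 9.3e-05), and it passed with clone or culture as a block (adjusted p = 0.011). With 1 mean per culture it was -0.33 (exact two-sided permutation within backgrounds, p = 0.028). The decrease was not seen in each background. In DelPID_SPOC, clone A8 had 538 and 525 CPM and clone G3 389 and 389 CPM at days 3 and 6, all below the 616 to 704 CPM of DelPID. In PCGF35_SPOC the 4 NPC pairs were lower without overlap, with log2 ratios of -0.49 to -0.23. In SPOC, however, D9 had 650 and 641 CPM and H1 713 and 674 CPM, within the range of WT (704, 799, 571 and 716 CPM), and the pairs differed by -0.14 and 0.03. Whether backgrounds differed in this was not tested.

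In ES cells Tbl1xr1 was at 434 to 597 CPM in PCGF35 and 389 to 463 CPM in PCGF35_SPOC. The difference was -0.27 ± 0.08 (edgeR, adjusted p = 0.024), and the mutants were lower without overlap in 3 of 4 pairs. It did not pass with the block (adjusted p = 0.31), with the groups of the comparison alone (adjusted p = 0.060) or without the Xist pair (adjusted p = 0.11). It was also lost on leaving out replicate 1 of PCGF35 ctrl day 0 or dTAG day 1, or any of the 4 ES libraries of clone F6 (adjusted p of 0.056 to 0.066). The NPC and ES differences gave an interaction of -0.13 ± 0.11 (adjusted p = 0.61). Over differentiation Tbl1xr1 rose by 0.29 ± 0.06 (edgeR, adjusted p = 2.5e-04), where 58.9% of all tested genes passed. NPC day 6 means were higher in 5 of 6 line and treatment groups, with -0.07 in DelPID_SPOC. dTAG-13 gave 0.05 ± 0.06 (adjusted p = 0.99).

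The 2 alleles of Tbl1xr1 were near equal. The Dom share was 49.2 to 53.9% in NPC libraries, and the change of the Dom to Cast ratio with the mutation was 0.04 ± 0.03 (adjusted p = 0.60). In ES it was 47.0 to 53.6% in PCGF35 and 50.7 to 52.7% in PCGF35_SPOC. Clone D9 of SPOC stood apart in ES, at 62.0 and 60.6% (95% Wilson intervals 60.4 to 63.5% and 59.3 to 61.9%). The median Dom share of chromosome 3, which holds Tbl1xr1, was 59.3 to 59.6% in those libraries and 53.2 to 53.3% in NPC libraries of the same clone. D9 ES libraries do not enter the ES comparison of mutant and parent.

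Tbl1x, the X-linked paralogue that can occupy the same place in the complex, differed in the other direction. Its NPC level was 428 to 651 CPM in parents and 562 to 892 CPM in mutants, a difference of 0.48 ± 0.05 (edgeR, adjusted p = 1.0e-07). The ES difference, averaged over days 0 and 1, was 0.16 ± 0.07 (adjusted p = 0.12). At day 0 PCGF35 was at 695 to 918 CPM and PCGF35_SPOC at 651 to 751 CPM. At day 1 PCGF35 was at 420 to 590 CPM and PCGF35_SPOC at 627 to 735 CPM, without overlap. Xist was induced on the Dom X chromosome, and the Dom share of Tbl1x was 3.63 to 26.6% in NPC parents and 41.8 to 64.9% in NPC mutants, without overlap. At ES day 0, before induction, PCGF35 was at 50.9 to 52.6% and PCGF35_SPOC at 53.5 to 55.9%. At ES day 1 PCGF35 had fallen to 21.5 to 28.1%, while PCGF35_SPOC was at 52.4 to 53.8%. The highest shares among NPC mutants, 60.4 and 64.9%, were those of clone F10 with dTAG-13 at days 3 and 6. For NPC samples of a PCGF35_SPOC clone, the study interpreted an upward skew as selection of cells without the Cast X. The part of such X loss in these shares was not tested.

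**Figure D4:**
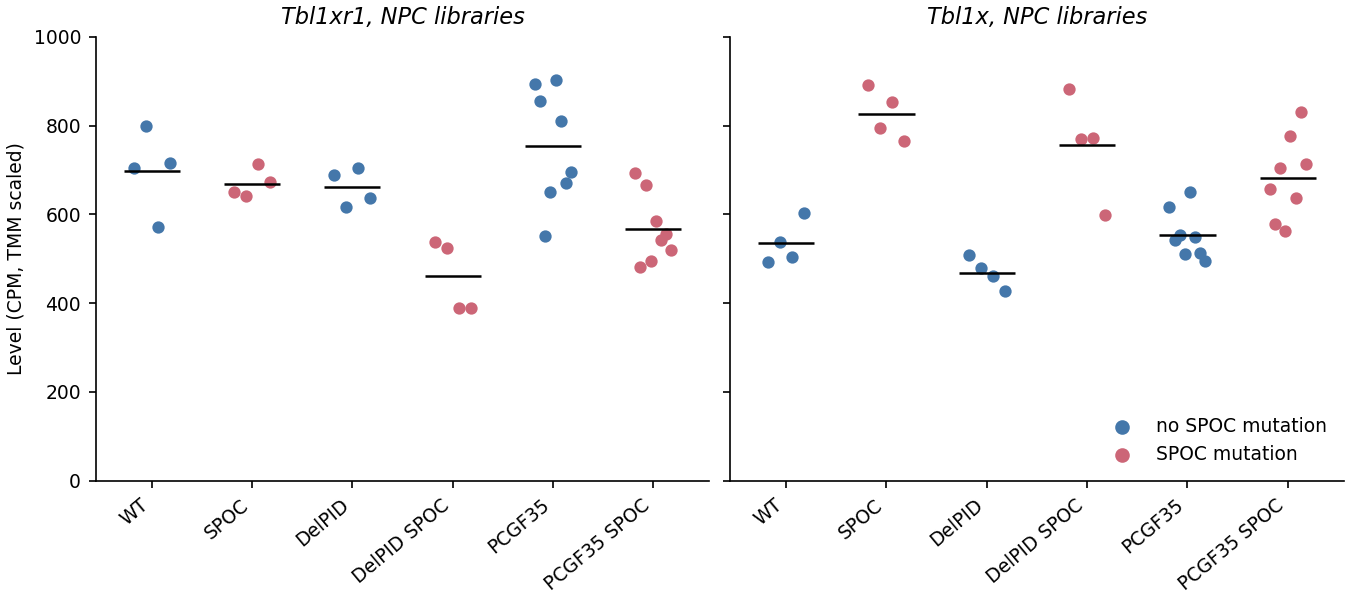
Levels of Tbl1xr1 (left) and Tbl1x (right) in NPC libraries by line, in CPM on a linear axis from 0. Points are libraries and bars are line means. Tbl1xr1 is lower in DelPID_SPOC and PCGF35_SPOC than in their parents but not in SPOC, and Tbl1x is at 428 to 651 CPM in parents and 562 to 892 CPM in mutants.

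Hdac3, the deacetylase of the complex, was low throughout, at 18.9 to 37.8 CPM, and its difference with the mutation did not pass the averaged tests. The ES difference was 0.04 ± 0.09 (95% interval -0.13 to 0.21, adjusted p = 0.78). The NPC difference was 0.13 ± 0.06 (95% interval 0.01 to 0.25, adjusted p = 0.19). Within DelPID the mutants were higher without overlap, with 2 libraries per line and day. DelPID had 27.1 and 27.8 CPM at day 3 and 19.2 and 27.0 CPM at day 6, and DelPID_SPOC had 37.8 and 35.6 CPM at day 3 and 33.9 and 32.2 CPM at day 6. The lowest of these libraries, DelPID day 6 replicate 1, had 38 Hdac3 fragments. Pairs in the other backgrounds differed by -0.08 to 0.15 in NPC, and of these only PCGF35_SPOC with dTAG-13 at day 3 was higher without overlap. The stage difference was 0.12 ± 0.07 (adjusted p = 0.13, and 0.025 with the block), and dTAG-13 gave -0.03 ± 0.06 (adjusted p = 1.0).

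The Hdac3 alleles differed by line. The Dom share was 68.1 to 83.3% in DelPID and 62.0 to 72.2% in DelPID_SPOC over both stages, and 44.7 to 59.0% in all other libraries, without overlap. Against WT the Dom to Cast ratio in DelPID changed by 1.38 ± 0.20 (edgeR, adjusted p = 7.8e-06). The highest share rests on 12 allelic fragments. Chromosome 18, which holds Hdac3, had a median Dom share of 68.4 to 78.1% in the DelPID lines and 52.1 to 54.4% in the others, and a median log2 difference of 0.36 between DelPID and WT. The level of Hdac3 itself differed between them by 0.13 ± 0.13 (95% interval -0.12 to 0.37, adjusted p = 0.59). With the mutation, the Dom to Cast ratio changed by 0.01 ± 0.10 in NPC (adjusted p = 0.99) and -0.16 ± 0.10 in ES (adjusted p = 0.57).

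Gps2, the smallest gene of the set, had the fewest fragments, with 15 to 304 per library and 3.98 to 16.8 CPM. The mutation gave -0.31 ± 0.16 in ES (95% interval -0.63 to 0.01, adjusted p = 0.19) and 0.00 ± 0.12 in NPC (95% interval -0.23 to 0.22, adjusted p = 1.0). In ES the 4 pairs were all lower by point estimate, and 2 of them did not overlap. The DelPID lines again stood higher in NPC. WT had 7.46, 4.20, 8.57 and 4.11 CPM, DelPID 12.2, 9.86, 7.58 and 12.0 CPM, and DelPID_SPOC 11.2 to 16.8 CPM. DelPID against WT was 0.80 ± 0.24 (edgeR, adjusted p = 0.032). This call was lost with the block (adjusted p = 0.054), with the compared groups alone (adjusted p = 0.16), and on leaving out WT replicate 2 of either day, DelPID day 3 replicate 1 or DelPID day 6 replicate 2, which gave 0.58 to 0.74. The stage difference was 0.36 ± 0.13 (adjusted p = 0.018), largest in DelPID_SPOC at 1.46, and fell to 0.30 without dTAG ES day 0 replicate 2 of PCGF35 or of PCGF35_SPOC (adjusted p = 0.052 and 0.055). Gps2 lies on chromosome 11, whose allele shares differed between lines. Over all libraries pooled, the median Dom share of Gps2 was 75.5% and the range 27.3 to 100%, on only 3 to 31 allelic fragments per library. The median was 41.7% in SPOC ES, 69.0% in SPOC NPC and 68.6% in DelPID NPC libraries, and WT libraries ranged from 77.8 to 100%. In the 8 ES parents, all of the PCGF35 line, the share was 68.4 to 100%, and the median share of chromosome 11 was 68.6 to 69.1%. The part of the chromosome in the Gps2 shares was not tested. The Dom to Cast ratio changed by -0.83 ± 0.50 with the mutation in ES (95% interval -1.82 to 0.16, edgeR, adjusted p = 0.52), and in NPC Gps2 had too few allelic fragments for the test.

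**Figure D5:**
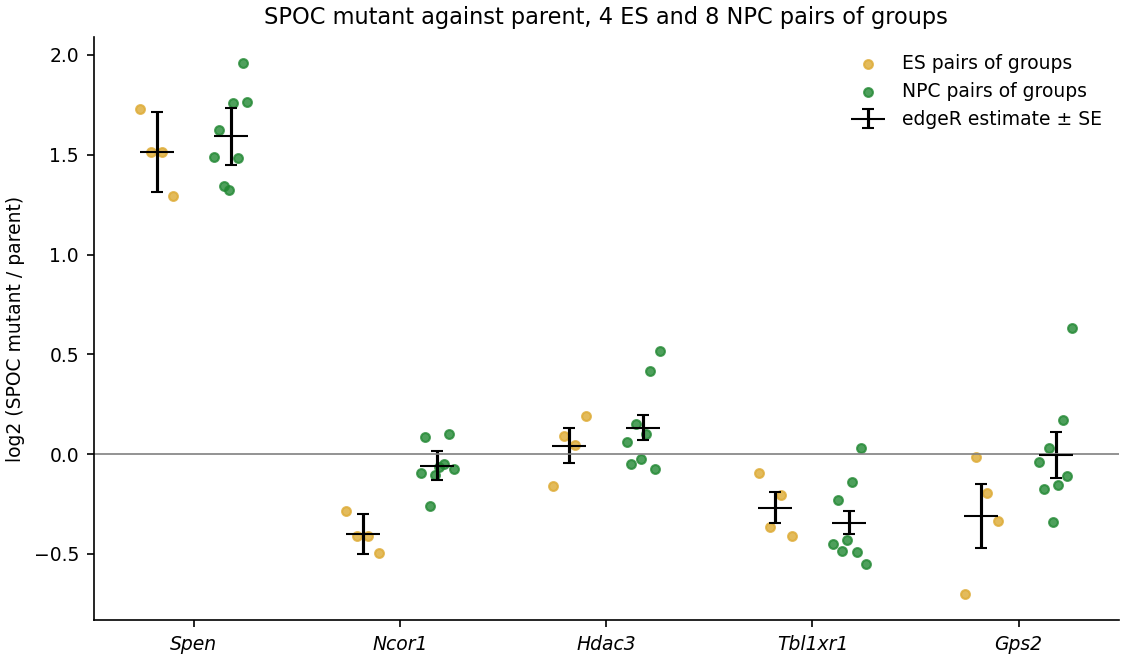
Log2 ratio of SPOC mutant to parent group means for the 5 genes, in 4 ES pairs (yellow) and 8 NPC pairs (green), with the edgeR estimate averaged over pairs and its SE in black. Spen lies at 1.29 to 1.96 in all 12 pairs. Tbl1xr1 lies below 0 in 11 of 12, and Ncor1 below 0 in 10 of 12 with small values in NPC.

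Other genes of the pathway were counted as lists. Over all tested genes 12.5% passed in ES and 8.62% in NPC, so calls in lists this short describe single genes only. Of the SPOC-domain family (Rbm15, Rbm15b, Phf3 and Dido1 tested, of 5 listed), Rbm15, a component of the RNA methylation machinery, was higher in ES (0.23 ± 0.08, adjusted p = 0.047) and NPC (0.27 ± 0.05, adjusted p = 0.0013). Dido1 was lower in ES (-0.53 ± 0.12, adjusted p = 0.0056). The family medians were -0.11 and 0.09, against 0.01 and 0.01 over all genes. Of 11 genes of NuRD, another deacetylase complex, 1 was higher in ES (Rbbp4) and 2 were lower (Mbd3 and Gatad2a), and in NPC only the X-linked Rbbp7 passed (0.65 ± 0.08, adjusted p = 1.3e-06). The NuRD medians were -0.07 and -0.06.

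Of 4 partners of SPEN in Notch signalling, Rbpj (-0.71 ± 0.18, adjusted p = 0.0098) and Ctbp2 (-0.44 ± 0.13, adjusted p = 0.019) were lower in ES and none passed in NPC (edgeR). The medians were -0.30 and -0.06. Of 7 other Xist-bound factors, Wtap was lower in ES (-0.21 ± 0.07, adjusted p = 0.032) and none passed in NPC, with medians of -0.07 and 0.02. The ES counts rest on the PCGF35 comparison. There 25 genes in all passed with the block and 273 without the Xist pair, against 2027 (12.5%) in the full comparison. In NPC 8.62% of all tested genes passed.

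The genes whose levels followed each member most closely over the 58 libraries were found by Pearson's r of log2 CPM among 10979 genes with a mean of at least 5 CPM. Libraries share lines, clones and depth, so these values are descriptions. For Spen they were 4933407K13Rik (r = 0.75), Tmem117 (0.73) and Nono (0.72), of which the first and last are X-linked. For Ncor1 they were Akap10 (0.91), Shmt1 (0.88) and Cops3 (0.88), all on chromosome 11. For Tbl1xr1 they were Gstcd (0.88), Mrps27 (0.86) and Tlk1 (0.85). For Hdac3 they were Rbm22 (0.77), Riok3 (0.76) and Drg2 (0.75), and for Gps2 Wdr55 (0.80), Cxxc1 (0.78) and Prmt5 (0.78). Rbm22, Riok3, Wdr55 and Cxxc1 are on chromosome 18. Among the members themselves r ran from -0.31 (Hdac3 and Tbl1xr1) to 0.53 (Ncor1 and Gps2), and Spen had values of -0.20 to 0.35 with the 4 genes of the complex.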

How the data were processed

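ChrRNA-seq of 58 libraries was used. According to the paper and the submitters' notes, the authors removed rRNA reads with Bowtie2 (2.3.2), aligned the rest to N-masked mm10 with STAR (2.4.2a), split alleles with SNPsplit and counted stranded fragments over whole transcripts with featureCounts; the deposited values are raw counts per gene, in total and for each allele. N-masking treats both alleles alike, but genes with few SNPs have few allelic fragments. Groups and clones were taken from the labels. All counts were analysed with edgeR (4.0.16): filterByExpr, TMM, 1 mean per group over all libraries and quasi-likelihood tests of averaged contrasts, adjusted over 16227 genes at 0.05. Allele counts were tested with a term per library (genes with at least 10 allelic fragments in 80% of libraries). The code was tested on simulated counts. Libraries of 1 clone formed 1 block across groups, and parent replicates were treated as cultures. The paper describes WT and DelPID as differentiated in parallel with their SPOC derivatives. The tests and the permutation did not use this pairing. Clone C11 has ES libraries only. Blocking on clone or culture in limma (3.58.1) gave correlations of 0.331 for levels, 0.144 for NPC alleles and 0.138 for ES alleles. Leave-one-out fits kept the dispersion trend of the full data. DESeq2 (1.42.0), RLE factors and other filters were alternatives. The labels do not say whether parent replicates are separate derivations, so p-values cover the spread between these libraries. The members, lists and comparisons were chosen with earlier results of these data known. Named genes are the members, listed genes that passed, neighbours, and the 3 most alike genes. Results of some neighbouring and partner genes are not reported here.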

Additional observations from a re-analysis of the deposited data

How the results depend on the processing

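Counts of passing genes moved most in the ES comparison of mutant and parent, from 2027 to 679 with the compared groups alone, 25 with the replicate block and 273 without the Xist pair, and to 657 to 2675 on leaving out 1 library. Leaving out any PCGF35 replicate 1 or F6 library there gave 657 to 1035. The NPC count fell from 1399 to 310 with the block (962 to 1859 leaving out 1 library). The interaction count went from 106 to 359 (DESeq2), 46 (compared groups), 1013 (block), 6 (without the Xist pair) and 15 to 575 (1 library left out). For dTAG-13, with 4 genes, these were 7, 2, 91, 1 and 3 to 10. DelPID against WT gave 1226, 491 with compared groups, 614 with the block and 650 to 1241 leaving out 1 library; PCGF35 against WT gave 507, then 800 (DESeq2), 1332, 105 and 151 to 447. Allele counts were 330 in ES, then 175 without the Xist pair, 127 with limma on log2 allele ratios, 50 with the block and 194 to 326 leaving out 1 library. They were 646 in NPC, then 381 with the block and 1029 without clone G3, and for DelPID against WT 1787, and 986 to 1819 leaving out 1 library, the lowest without DelPID day 6 replicate 2.

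Among members, Spen kept its call in ES (1.41 to 1.66) and NPC (1.46 to 1.67) whichever library was left out, and under each alternative run. Tbl1xr1 in NPC kept its call too (-0.38 to -0.32). Calls in ES were lost for Ncor1 with the compared groups (-0.39), the block (-0.39) and without the Xist pair (-0.28), and for Tbl1xr1 with -0.26, -0.27 and -0.26, and -0.30 to -0.24 leaving out 1 library. The Ncor1 allele call in ES was lost without the Xist pair (-0.15), with limma (-0.19) and with the block (-0.19), and in 7 of 16 fits leaving out 1 library (-0.22 to -0.15). Hdac3 over differentiation passed with the block (0.14), and Gps2 lost 2 of 25 leave-one-out calls (0.30 to 0.45). Values near 0 changed sign: Gps2 in NPC (0.0142 with the block, 0.0719 with 1 value per culture, -0.0590 to 0.0728 leaving out 1 library), the Hdac3 interaction (0.0125 with compared groups, -0.0498 to 0.0342), Spen with dTAG-13 (-0.0741 without the Xist pair, -0.117 to 0.123), the Spen interaction (-0.346 to 0.0717), the Spen NPC allele ratio (-0.0104 to 0.0727), Hdac3 in ES (-0.0056 to 0.0836) and its NPC allele ratio (-0.0312 with limma, -0.0312 with the block, -0.0188 without G3, -0.108 to 0.0539). The cause was not tested. Depth limits Gps2 and Hdac3, above all in the DelPID day 6 library of 2292261 fragments. The fits without the Xist pair or with 1 value per culture and both parental-line comparisons were chosen after seeing the data.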
